A study of Mus musculus with 6 samples.

Results

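The interleukin-1 (IL-1) system was described through 9 genes of the 29781 measured in any library: the ligands Il1a, Il1b, Il18 and Il33, the receptor antagonist Il1rn, the decoy receptor Il1r2, and the receptor chains Il1r1, Il1rap and Il1rl1. The genes were chosen by name, as the core ligands, inhibitors and receptors of the family, and all 9 were found in the matrices. The data are single-cell RNA-seq of tumours from 6 C57BL/6J mice. KPC cells, a mouse pancreatic cancer line, had been placed in the pancreas of each animal, and the genotype is given as wild-type. The IgG group (3 mice) received control IgG and the anti-VSIG4 group (3 mice) received #44-anti-mVSIG4, an antibody against the macrophage receptor VSIG4. Tumours were taken on day 11 after inoculation in both groups, each mouse gave 1 library, and the labels name no dose, schedule, sex or age. The model is 1 transplanted line in an immunocompetent host. The values below show which cells carried the transcripts of ligands, inhibitors and receptors, how neutrophils and macrophages shared them, and how the antibody groups compared.

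IL-1α and IL-1β, the products of Il1a and Il1b, bind IL-1R1, which signals through MyD88 and IRAK kinases once the accessory chain IL-1RAP joins it. The soluble antagonist IL-1RA, made from Il1rn, occupies IL-1R1 without recruiting that chain, and IL-1R2 binds IL-1 but lacks the signalling domain. IL-1β and IL-18 are made as precursors that inflammasome caspases cut, so a transcript level is not a level of active cytokine. IL-33 is a nuclear alarmin of epithelium and stroma, and its receptor, the product of Il1rl1, is carried by mast cells, type 2 lymphoid cells and a subset of regulatory T cells. In pancreatic tumours, IL-1 from myeloid and tumour cells is known to act on fibroblasts.

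The 6 matrices held 47794 barcodes, of which 47603 were kept, and totals ran from 26606234 to 47221033 UMIs (unique molecular identifiers, counted molecules) per library. Classes were named by marker genes from clusters built without the 9 genes and without 54 other genes of the pathway. A class name means only that the cells resemble that type. The main classes were neutrophils (16067 cells), monocyte/macrophages (11014), T cells (6047), tumour/epithelial cells (2633), cDC2 (conventional type 2 dendritic cells, 1222) and fibroblasts (899). Barcodes rich in long genes, called nucleus-like and given no class, made up 0.587%, 17.5% and 41.5% of the IgG libraries and 0.675%, 0.509% and 5.68% of the anti-VSIG4 libraries, so library make-up varied within and between the groups. Barcodes are numbered names, and 11691 of 32450 distinct names recurred between libraries, but 0 cells had identical counts in another library. Levels are given as CPM, the UMIs of a gene per 1000000 UMIs of a class in a library. A lower level in a class cannot be told apart from fewer expressing cells unless the share of cells is given too. UMI levels of different genes depend on how each is captured, so a gene was compared with itself across classes. Classes are ranked among the 10 that had 20 or more cells in every library, unless pooled values of the rarer classes are named.

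Free or attached neutrophil RNA was present in every class. The summed level of 8 neutrophil markers (without Mmp9) was 32130 to 55228 CPM in neutrophils, and in T cells it still was 2.26% to 8.0% of the neutrophil level of the same library. Levels in other classes are therefore set beside a yardstick, the UMIs of a gene per neutrophil-marker UMI relative to the same ratio in neutrophils of that library. A yardstick near 1 is what neutrophil RNA alone would give. Free RNA of other classes, such as macrophages, is not measured by it. A value above 1 thus does not separate transcripts made by a class from free RNA of those classes.

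The ligand genes Il1a and Il1b are neighbours on mouse chromosome 2 and both had their highest level in neutrophils, so the bases before their starts are printed here. The sequences are the 250 bases before the RefSeq start (GRCm38.p6), 5′ to 3′ on the minus strand, with Il1a at chr2:129309973-129310222 and Il1b at chr2:129371140-129371389. Capitals mark exact matches, on either strand, to TATAAA, the Ets core bound by factors such as PU.1 (GAGGAA) and to TGANTCA (an AP-1 core).
Il1a: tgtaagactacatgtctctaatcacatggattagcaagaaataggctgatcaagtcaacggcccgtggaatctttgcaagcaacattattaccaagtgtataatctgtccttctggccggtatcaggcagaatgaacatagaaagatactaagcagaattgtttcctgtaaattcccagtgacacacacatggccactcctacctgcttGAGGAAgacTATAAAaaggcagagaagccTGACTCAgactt
Il1b: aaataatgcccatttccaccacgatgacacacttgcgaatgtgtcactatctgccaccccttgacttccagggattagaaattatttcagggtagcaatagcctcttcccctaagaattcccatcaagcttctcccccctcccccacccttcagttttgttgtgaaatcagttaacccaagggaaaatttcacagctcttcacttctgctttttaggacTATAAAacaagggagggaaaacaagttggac
Both windows held TATAAA close to the start, beginning 32 bases before it in Il1a and 31 in Il1b, a motif found in 12.4% of all 32851 promoter windows of this length. Only the Il1a window of this pair held GAGGAA (23.3% of all windows) and TGANTCA (6.75%), 41 and 12 bases before the start. Neither window held TTGCNNAA (a C/EBP core, 9.56% of all windows) or the NF-kB consensus (3.90%). The matched motifs do not overlap, and a match describes letters only.

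Among the classes with 20 or more cells in every library, Il1b was carried mainly by neutrophils, macrophages and dendritic cells. In neutrophils the level of Il1b was 18700.5, 13625 and 15104 CPM in IgG libraries and 21797, 17422 and 19709 CPM in anti-VSIG4 libraries. In monocyte/macrophages it was 5532, 4965 and 4049 CPM with IgG and 7143, 6306 and 6905 CPM with anti-VSIG4. Neutrophils were above macrophages in 6 of 6 libraries, with a mean 3.05-fold higher and no overlap. cDC2 reached 5359 ± 809 CPM (SD, n = 6), which overlapped the macrophage range, and migratory dendritic cells reached 3058 ± 918 CPM, below cDC2 in 6 of 6 libraries. The Il1b yardstick was 3.78 to 11.0 in macrophages, 4.40 to 30.2 in cDC2 and 2.15 to 7.37 in migratory dendritic cells. T cells showed 385 to 1976 CPM of Il1b but a yardstick of 1.05 to 1.32, and endothelial cells one of 0.875 to 1.5, both close to the value of neutrophil RNA itself. Among rarer cells, pooled Il1b was 6917 CPM in 21 basophils (224 UMIs) and 3538 CPM in 129 acinar cells. Pooled levels were 6033 CPM in macrophages and 5584 CPM in cDC2. Pooled Il1r2 was 185 CPM in the basophils and 5062 CPM in neutrophils. The part of free RNA in the rarer cells was not tested.

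Detection per cell gave the same order. After each cell was thinned to 1000 UMIs, Il1b was found in 95.9% ± 2.54 (SD, n = 6) of neutrophils, 90.5% ± 5.19 of macrophages and 88.6% ± 5.56 of cDC2. T cells, which should lack it, still showed 46.5% ± 19.5. Without thinning the shares were 97.5%, 98.5%, 98.0% and 76.1%, at median depths of 1573 UMIs in neutrophils and 3002 in T cells. All kept cells reached the thinning depth.

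Il1a, the ligand that is active without inflammasome cleavage, had the same leading classes at a lower count. Its level in neutrophils was 345, 299 and 321 CPM in IgG libraries and 529, 345 and 377 CPM in anti-VSIG4 libraries, 2.51-fold above macrophages (147 ± 37.6 CPM) in the mean and higher in 6 of 6 libraries. The other 8 of the 10 classes averaged 39.2 CPM or less. Among rarer cells, the pooled Il1a level was 97.7 CPM in 129 acinar cells, 57.5 CPM in 255 B cells, 67.8 CPM in the 221 unnamed cells and 110 CPM in the nucleus-like barcodes. The Il1a yardstick was 4.10 to 17.4 in macrophages and 1.75 to 4.46 in tumour/epithelial cells, against 1.00 to 2.00 in T cells. The tumour/epithelial range overlapped those of cDC2 (1.93 to 4.13), fibroblasts (1.26 to 3.07) and endothelial cells (1.21 to 2.87). It also overlapped those of NK cells (0.963 to 2.87), plasma cells (1.07 to 2.97) and migratory dendritic cells (1.08 to 2.97). Within thinned neutrophils, 21.1% ± 4.17 held a UMI of Il1a, against 11.2% ± 2.54 of macrophages and 2.74% ± 1.58 of T cells. Of thinned neutrophils with Il1b, 22.6% also held Il1a, against 7.56% of the 595 without Il1b.

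**Figure D1:**
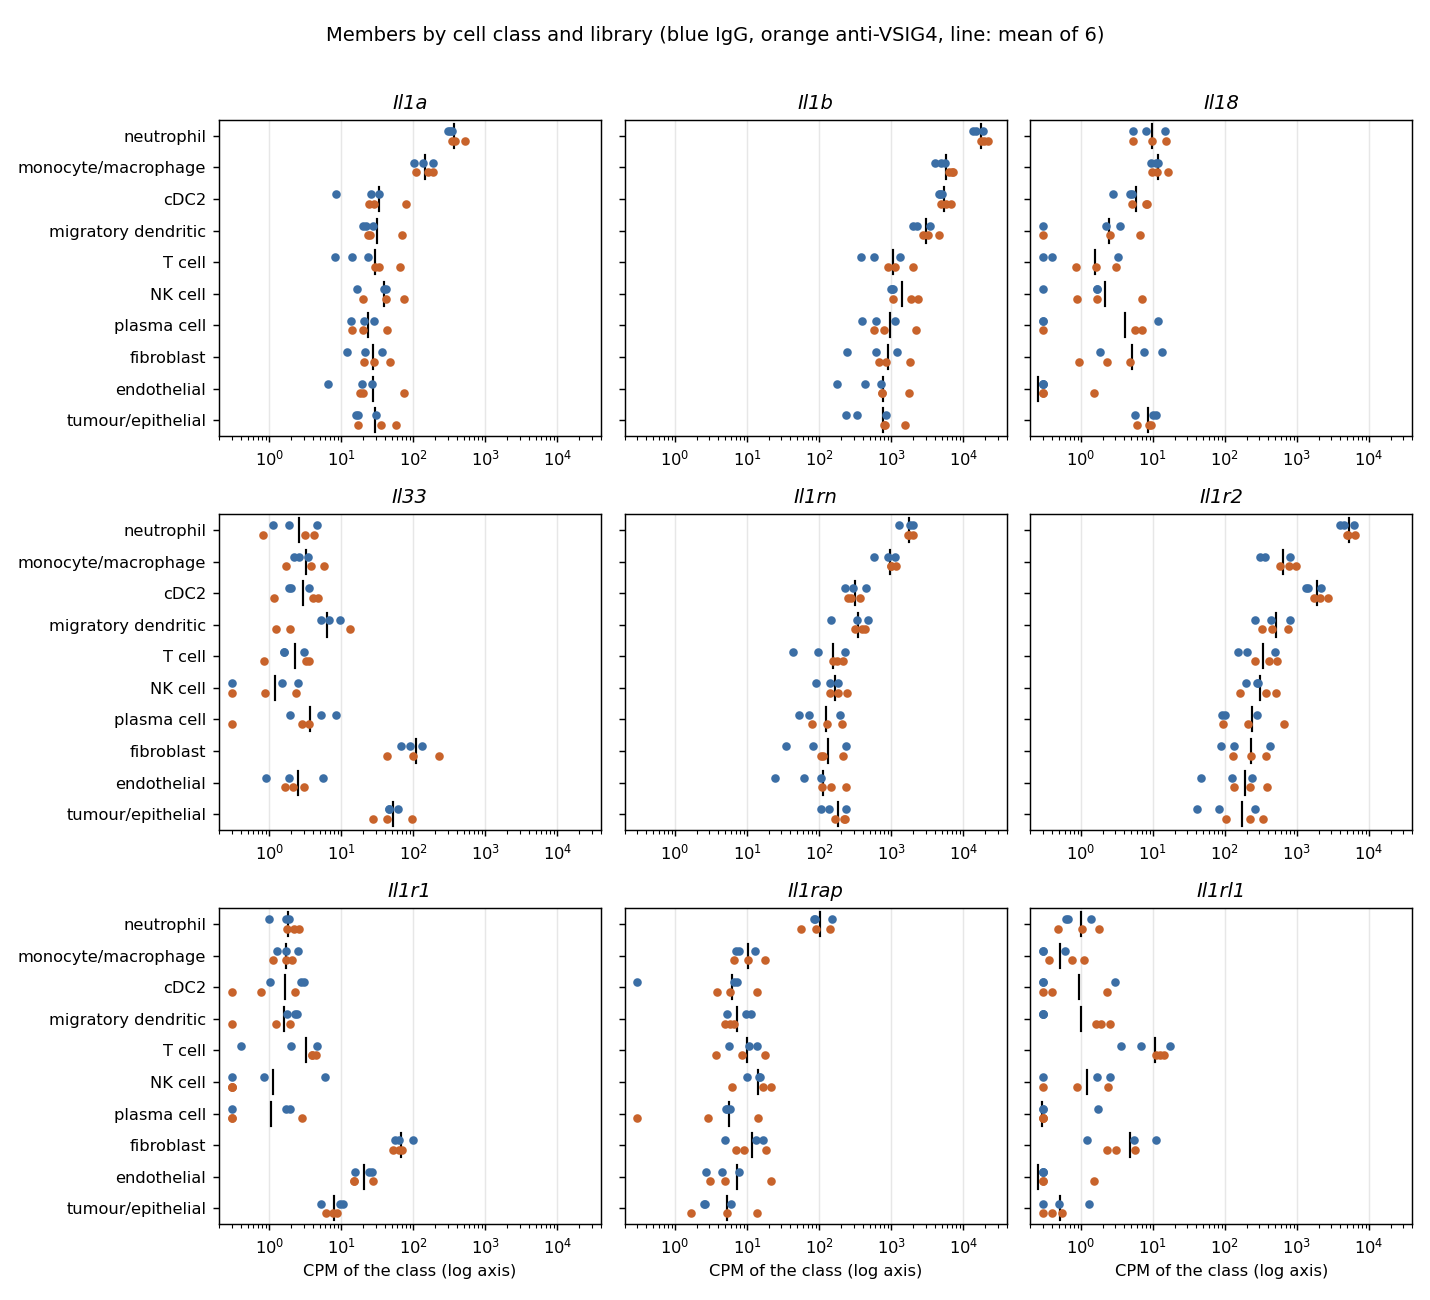
Level of each of the 9 genes (CPM, log axis) in 10 cell classes. Points are libraries (blue IgG, orange anti-VSIG4), the black line is the mean of 6, and values near 0 are drawn at the left edge. Il1a, Il1b, Il1rn, Il1r2 and Il1rap are highest in neutrophils, Il1r1 and Il33 in fibroblasts, and Il1rl1 in T cells.

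The neutrophil and macrophage shares of the transcripts depend on cell numbers and RNA per cell as well as on level. Neutrophils were 38.2% ± 10.9 (SD, n = 6) of the cells in named classes but only 13.9% ± 4.58 of their UMIs, while macrophages were 26.5% ± 5.14 of cells and 35.3% ± 7.80 of UMIs. Of all Il1b UMIs in named classes, neutrophils held 46.3%, 53.5% and 50.8% in IgG libraries and 52.3%, 31.2% and 46.1% in anti-VSIG4 libraries. Macrophages held 38.3%, 38.2% and 34.2% with IgG and 32.4%, 49.7% and 44.2% with anti-VSIG4. Anti-VSIG4 replicate 2 was the only library in which macrophages held more Il1b than neutrophils, and it also had the smallest share of neutrophils among its cells (22.3%). The neutrophil share of Il1b differed by -7.01 percentage points between the anti-VSIG4 and the IgG mean, with overlapping groups (exact two-sided permutation p = 0.4, where 3 against 3 libraries allow no p below 0.1).

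Neutrophils held 43.0% ± 5.62 of Il1a, against 44.2% ± 6.47 in macrophages, and the order of the classes differed between libraries. Il1rn leaned to macrophages (49.7% ± 7.10) over neutrophils (36.1% ± 7.64). Il1r2 leaned the other way, with 62.6% ± 10.5 in neutrophils, 18.9% ± 5.24 in macrophages and 8.80% ± 2.81 in cDC2, and so did Il1rap, with 64.4% ± 8.89 in neutrophils. The macrophage share of Il1r2 was 20.8%, 12.1% and 13.1% in IgG libraries and 21.0%, 25.6% and 21.1% in anti-VSIG4 libraries, and the cDC2 share was 9.36%, 3.71% and 8.11% against 9.96%, 12.1% and 9.54%. Neither pair of groups overlapped, at the smallest exact permutation p of 0.1 in both cases, and the gap between the highest IgG library and the lowest anti-VSIG4 library was small in both. Of all genes, 12.8% had a macrophage share and 23.8% a cDC2 share that did not overlap and was higher with anti-VSIG4 (lower in 0.239% and 0.0985%). In their share, 9 of the 90 pairs of a member and a class did not overlap. These were Il1r2, Il1rap and Il18 in cDC2, Il1r2 and Il1rl1 in macrophages, and Il1r1 and Il1rl1 in fibroblasts. The others were Il1r1 in T cells and Il1rl1 in migratory dendritic cells, classes in which the share over all genes was not counted.

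**Figure D2:**
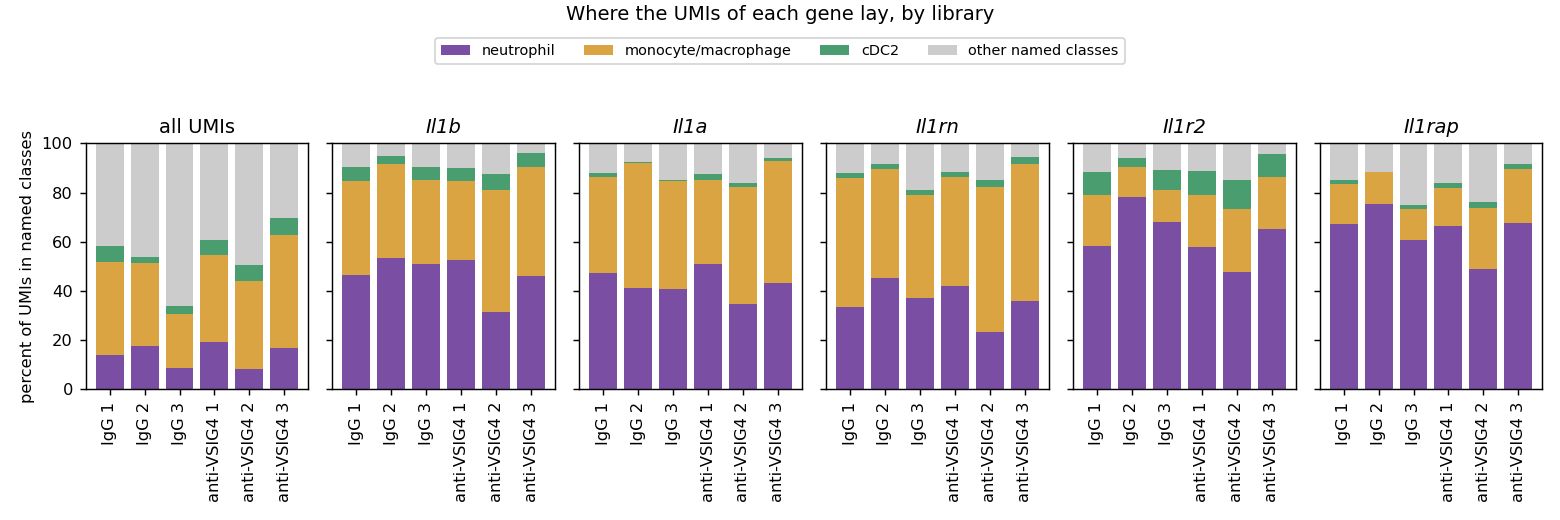
Percent of all UMIs and of the UMIs of 5 genes that lay in neutrophils (purple), monocyte/macrophages (yellow), cDC2 (green) and the other named classes (grey), for each library. Neutrophils hold a small part of all UMIs (13.9% on average) but 46.7% of Il1b and 62.6% of Il1r2.

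Both inhibitors were highest in neutrophils and differed in the class that came next. Il1rn, the antagonist, was at 2038, 1815 and 1299 CPM in neutrophils of IgG libraries and at 1773, 1736 and 2035 CPM in those of anti-VSIG4 libraries. Macrophages had 966 ± 211 CPM (SD, n = 6) and lay below neutrophils in 6 of 6 libraries, with a yardstick of 6.49 to 18.3. Tumour/epithelial cells had 183 ± 55.0 CPM with a yardstick of 2.07 to 7.20, while it was 1.40 to 2.12 in T cells. Per Il1b UMI, macrophages carried 0.167 ± 0.0255 Il1rn UMIs, neutrophils 0.102 ± 0.0185 and cDC2 0.0590 ± 0.0183. The ratio compares classes only, as its size depends on the capture of both genes. Between antibody groups the Il1rn to Il1b ratio of neutrophils was 0.109, 0.133 and 0.0860 with IgG against 0.0813, 0.0997 and 0.103 (exact permutation p = 0.4), and that of macrophages overlapped as well (p = 0.4, exact).

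Il1r2, the decoy, was highest in neutrophils, and cDC2 came next. Neutrophils had 6213, 4538 and 3997 CPM with IgG and 5128, 6370 and 4907 CPM with anti-VSIG4, and the groups overlapped. cDC2 had 2143, 1405 and 1354 CPM with IgG and 2731, 2110 and 1711 CPM with anti-VSIG4, again overlapping. cDC2 lay below neutrophils in 6 of 6 libraries (2.72-fold) and above macrophages (632 ± 265 CPM) in 6 of 6 libraries (3.02-fold). The Il1r2 yardstick of cDC2 was 7.53 to 33.3, that of macrophages 1.95 to 3.14, and those of tumour/epithelial cells (0.911 to 1.27) and NK cells (0.881 to 1.15) were near 1. In thinned cells Il1r2 was found in 89.1% ± 4.09 (n = 6) of neutrophils, 61.5% ± 11.8 of cDC2, 34.0% ± 11.5 of macrophages and 19.5% ± 9.31 of T cells, and unthinned in 93.3%, 88.6%, 67.3% and 41.9%. Of thinned cDC2 with Il1b, 68.0% also held Il1r2, against 35.0% of the 123 without Il1b, and in neutrophils these shares were 89.6% and 78.8%.

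The signalling receptor Il1r1 was low in the neutrophils and macrophages that carried most Il1a and Il1b, and highest in fibroblasts, which also had the highest Il33. Fibroblasts had 55.4, 62.9 and 100.4 CPM of Il1r1 with IgG and 63.9, 51.7 and 69.0 CPM with anti-VSIG4. Endothelial cells followed at 20.6 ± 6.25 CPM and tumour/epithelial cells at 7.93 ± 2.01 CPM, and each of these 3 classes was above the next in 6 of 6 libraries without overlap. Neutrophils (1.85 ± 0.538 CPM, 57 UMIs in all) and macrophages (1.73 ± 0.512 CPM) were lower still. Fibroblasts were 899 of the cells but held 48.1% ± 1.69 (SD, n = 3) of Il1r1 UMIs of named classes with IgG and 40.7% ± 3.21 with anti-VSIG4, without overlap and at the smallest exact permutation p of 0.1. The fibroblast share of 9.22% of all genes likewise did not overlap and was lower, and that of 0.198% was higher. Across all cells there were 207, 158 and 48.7 Il1r2 UMIs per Il1r1 UMI in IgG libraries and 389, 160 and 317 in anti-VSIG4 libraries, overlapping groups (exact permutation p = 0.2).

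Il1rap, the accessory chain shared by the IL-1 and IL-33 receptors, did not follow Il1r1. Its level in neutrophils was 149, 86.7 and 85.3 CPM with IgG and 142, 90.5 and 55.8 CPM with anti-VSIG4, 7.24-fold above NK cells, the next of the 10 classes, in the mean. Pooled levels above that of NK cells (12.5 CPM, 58 UMIs) rested on few UMIs. They were 25.3 CPM in 31 mast cells, where all 6 UMIs lay in 1 cell, and 18.4 CPM in 255 B cells (16 UMIs). In 178 plasmacytoid dendritic cells the level was 14.3 CPM (11 UMIs). The 95% Poisson intervals, for counting error only, overlapped: 9.51 to 16.2 in NK, 9.29 to 55.1 in mast, 10.5 to 29.9 in B and 7.14 to 25.6 CPM in plasmacytoid dendritic cells. Fibroblasts had 11.5 ± 5.31 CPM and macrophages 10.4 ± 4.30 CPM. On the log2 scale (CPM plus 1), neutrophils exceeded macrophages by 3.43, 3.34 and 3.43 with IgG and by 2.93, 3.00 and 2.90 with anti-VSIG4 for Il1rap. These groups did not overlap, with the smallest exact permutation p of 0.1, and the same was true of Il1rn (0.995 against 0.811 in the means). Of 10594 genes, 8.55% did not overlap and were lower with anti-VSIG4 on this measure, and 3.3% were higher. For the other 7 genes this difference between the classes overlapped between antibody groups.

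Il18, Il33 and Il1rl1 were low or restricted. Il18 was at 11.6 ± 2.50 CPM in macrophages, 9.63 ± 4.32 in neutrophils and 8.5 ± 2.2 in tumour/epithelial cells, ranges that overlap. Il33 lay in fibroblasts, at 68.1, 88.8 and 133 CPM with IgG and 100.2, 228 and 43.3 CPM with anti-VSIG4, and in tumour/epithelial cells at 45.9, 45.5 and 61.1 against 95.1, 42.6 and 27.7 CPM. The anti-VSIG4 libraries held both the highest and the lowest fibroblast value and both the highest and the lowest tumour/epithelial value. Tumour/epithelial cells carried 55.8% ± 17.6 (SD, n = 6) of all Il33 UMIs in named classes, against 29.1% ± 17.3 in fibroblasts. By pooled level Il1rl1 was highest in mast cells, where 12 of 31 cells held 42 UMIs in all (177 CPM pooled, 95% Poisson interval 128 to 239.6 for counting error only), of which 19 lay in 1 cell. T cells had 17.0, 3.63 and 6.81 CPM with IgG and 12.5, 11.1 and 14.1 CPM with anti-VSIG4, and held 57.3% ± 9.42 of its UMIs in named classes.

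Within neutrophils, IL-1 genes varied between sub-clusters, which were again built without these genes and are called by leading genes. The sub-cluster led by Stfa2l1 and Csta2 had the highest pooled Il1b (27108 CPM, 23315 to 30112 over libraries), though it was highest in only 2 of 6 libraries, and the highest pooled Il1a (745 CPM, highest in 4 of 6). The sub-clusters led by the interferon-induced genes Gbp5 and Gbp2 (24873 CPM) and Rsad2 and Cxcl10 (25203 CPM) followed for Il1b. Lowest for Il1b in 6 of 6 libraries was the sub-cluster led by the heat-shock genes Hspa1a and Hspa1b, at 6428 CPM (4001 to 8405), 4.22-fold below the highest. That heat-shock sub-cluster also had the lowest pooled Il1r2 (2670 CPM, lowest in 4 of 6 libraries) yet kept Il1rn at 2507 CPM. Pooled Il1rn was highest in the sub-cluster led by the cytokine gene Tnf (2851 CPM, highest in 2 of 6 libraries), which held 25.9% of neutrophil Il1rn and 27.8% of neutrophil Il1a in 16.1% of the cells.

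The neutrophil sub-cluster led by Retnlg and Lrg1 had another pattern. It had the lowest pooled Il1a (203 CPM) and Il1rn (1099 CPM) and the highest pooled Il1rap (232 CPM, 138 to 279 over libraries) of all neutrophil sub-clusters, and these ranks held in 3, 4 and 3 of 6 libraries. With 17.0% of the neutrophils, it held 39.6% of neutrophil Il1rap and 48.6% of neutrophil Il18, but 14.1% of neutrophil Il1r2. The pooled level of Il18 was highest in the sub-cluster led by Rsad2 and Cxcl10 instead, in 4 of 6 libraries. Neutrophil Il18 rested on 290 UMIs in all. Il1r2 was highest in 6 of 6 libraries in the sub-cluster led by Ltc4s and Gm16894 (6822 CPM). Il1b was high both in the Retnlg sub-cluster (21623 CPM) and in this one (20071 CPM), while a further sub-cluster led by Ltc4s and H1f0 had 10859 CPM of Il1b.

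Among macrophages, the sub-cluster led by the early-response genes Gadd45g and Id3 had the highest Il1b in 6 of 6 libraries (10080 CPM, 6976 to 11760). The sub-cluster led by Ccl8, Fcna and Cbr2 had the lowest pooled Il1b, at 2737 CPM (1350 to 3165, lowest in 4 of 6 libraries). Il1a separated from Il1b: it was highest in the sub-cluster led by Mmp12, Gpnmb and Tnf (442 CPM, highest in 5 of 6 libraries), followed by that led by Saa3 and Marco (343 CPM). These 2 sub-clusters were 5.97% and 7.71% of macrophages and held 22.6% and 22.9% of macrophage Il1a. Il1r2 was highest in 6 of 6 libraries in the sub-cluster led by Mmp12 and Dcstamp (1213 CPM, yardstick 4.95 to 10.2), which held 29.2% of macrophage Il1r2. Il18 was highest in the sub-cluster led by Ly6c2, a gene of inflammatory monocytes (34.5 CPM), where Il1a was lowest (39.9 CPM), each in 5 of 6 libraries. The 617 macrophages led by S100a9 and S100a8, with 10570 CPM of neutrophil markers, were left out of these rankings.

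**Figure D3:**
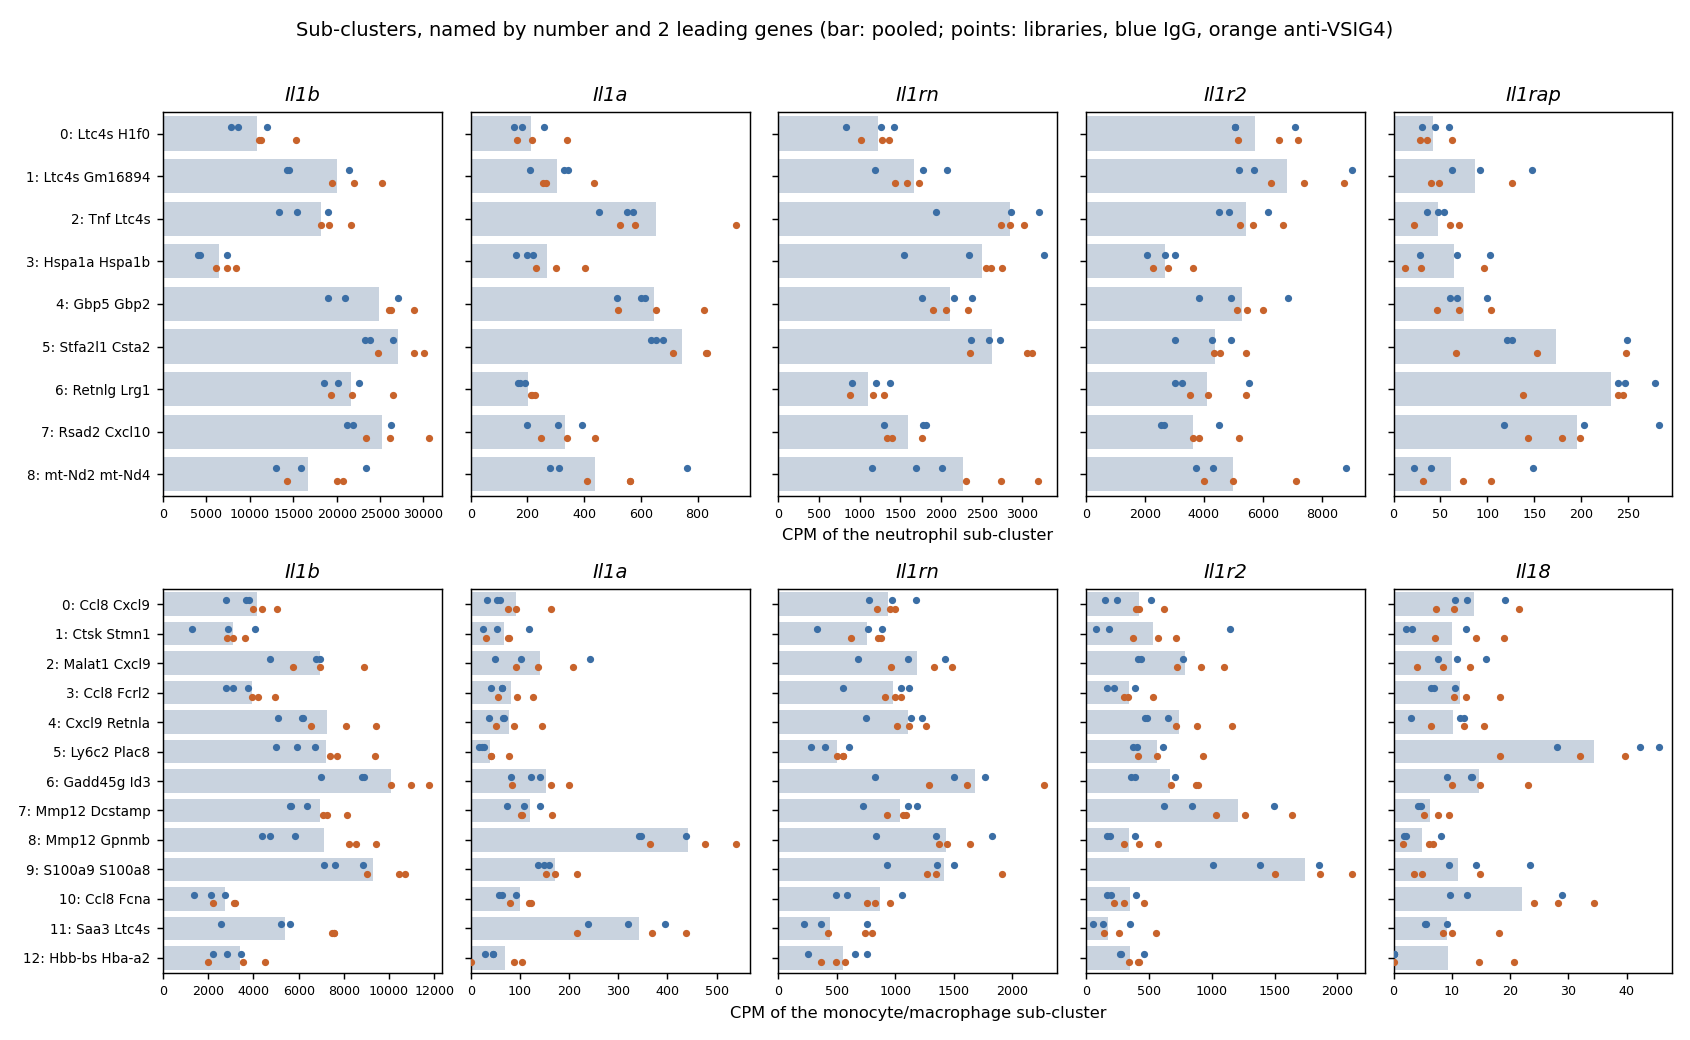
Levels (CPM, linear axes starting at 0) of 5 genes in the 9 sub-clusters of neutrophils (top) and 13 of monocyte/macrophages (bottom), labelled by number and 2 leading genes. Bars are pooled values and points are libraries (blue IgG, orange anti-VSIG4). The heat-shock sub-cluster 3 is lowest for Il1b in neutrophils, and sub-clusters 8 and 11 stand out for Il1a in macrophages.

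Among T and NK cells, Il1rl1 and Il1r1 peaked in different sub-clusters. Il1rl1 was highest in 6 of 6 libraries in the cells led by Foxp3, the factor of regulatory T cells, and Areg, at 91.0 CPM (58.0 to 209), and these 440 cells held 48.7% of the Il1rl1 of T and NK cells. Pooled Il1r1 was highest in the 101 cells led by Il17a and Trdc (the latter a gamma-delta T cell receptor gene). It was 87.1 CPM from 22 UMIs and was highest there in 4 of 6 libraries. This sub-cluster held 22.9% of the Il1r1 of T and NK cells in 1.34% of the cells. It had 9, 2 and 0 cells in IgG libraries and 35, 37 and 18 in anti-VSIG4 libraries. The pooled level thus rests mostly on anti-VSIG4 cells, and the library with 0 cells is among the 6. Il1r2 in T cells exceeded the yardstick in the sub-cluster led by Gzmc and Ccl1 (487 CPM, yardstick 2.39 to 10.01) and in the Foxp3 and Areg sub-cluster (343 CPM, yardstick 1.22 to 5.79).

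Whether anti-VSIG4 changed any of these genes was tested by class with edgeR on summed counts, and 0 of the 68 pairs of a member and a class passed a false discovery rate of 0.05 (10 classes and all cells together). At an unadjusted p under 0.05 there were 4 of these pairs. In neutrophils 0.0091% of 10991 genes passed (1 gene, Car4, a carbonic anhydrase gene named after its value was seen), so few genes of any kind were called. In macrophages 0.0% of 12950 genes passed, as did 0.0% in cDC2, T cells, fibroblasts, tumour/epithelial cells and all cells. NK cells, migratory dendritic cells and plasma cells also had 0.0%, and endothelial cells 0.0151% of 6613 genes (1 gene, Hp, which encodes haptoglobin). At an unadjusted p under 0.05 there were 586 genes in neutrophils, 503 in macrophages, 342 in cDC2, 368 in T cells, 591 in fibroblasts, 472 in tumour/epithelial cells and 1381 in all cells. There were 748 in NK cells, 317 in endothelial cells, 556 in migratory dendritic cells and 242 in plasma cells. DESeq2 called 5, 20, 0, 5, 32, 5 and 13 genes in the first 7 of these fits and 14, 5, 9 and 4 in the last 4.

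The fitted change of Il1b was above 0 in 11 of 11 fits, as was that of Il1r2, while that of Il1r1 was above 0 in 1 of 6. The fits share libraries and neutrophil RNA. In neutrophils 6 of 7 tested members were above 0 (median log2 change 0.24, against -0.01 over all genes), in macrophages 7 of 8 (0.28 against 0.00), in T cells 8 of 8 (0.58 against 0.00) and in fibroblasts 5 of 7 (0.24 against 0.00). In macrophages the Il1b levels of the groups did not overlap (all 3 anti-VSIG4 libraries above all 3 IgG libraries), and the log2 change was 0.48 ± 0.19 (SE, edgeR unadjusted p = 0.035, adjusted p = 1.00). Of all genes in macrophages, 3.65% did not overlap and were higher with anti-VSIG4, and Il1b was 1 of 8 members that passed the filter on low counts. Without the 617 cells led by S100a9 and S100a8 the groups still did not overlap, at 5306, 4871 and 3926 CPM against 6897, 6145 and 6762 CPM. The neutrophil markers in macrophages were at 2537, 1296 and 839 CPM with IgG and 4784, 1663 and 1559 CPM with anti-VSIG4, and their part in the result was not tested beyond this. In neutrophils the log2 change of Il1b was 0.42 ± 0.21 (edgeR adjusted p = 0.882) and IgG replicate 1 lay above anti-VSIG4 replicate 2. In cDC2 it was 0.27 ± 0.15 (edgeR adjusted p = 0.995). Among the 3 libraries with under 1% nucleus-like barcodes the change of Il1b was 0.31 ± 0.35 in macrophages and 0.13 ± 0.40 in neutrophils, and among the other 3 it was 0.66 ± 0.22 and 0.62 ± 0.17 (edgeR adjusted p = 1.00, 0.985, 0.0937 and 0.0297 in this order). The first 3 libraries hold a single IgG library and the other 3 a single anti-VSIG4 library, so a lone library stands for its group in each fit. The last of these values passed, as did 155 of 12649 genes in that fit.

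The other members varied in the size, direction and overlap of their changes. The log2 change of Il1r2 was 0.68 ± 0.31 in macrophages, 0.42 ± 0.20 in cDC2 and 0.24 ± 0.21 in neutrophils (edgeR adjusted p = 1.00, 0.995 and 0.886), and that of Il1a was 0.49 ± 0.22 in neutrophils (adjusted p = 0.882, edgeR). In macrophages Il1r2 was at 0.18 ± 0.31 within libraries under 1% nucleus-like barcodes and at 0.85 ± 0.20 within the others (edgeR adjusted p = 1.00 and 0.00297), and 271 of 13629 genes passed in the latter fit. Il1rn stood at 0.21 ± 0.22 in neutrophils and 0.27 ± 0.24 in macrophages. Il1r1 in fibroblasts stood at -0.28 ± 0.26 and Il33 there at 0.36 ± 0.55, neither near the threshold. In T cells Il1a did not overlap between groups (23.5, 14.1 and 8.08 CPM against 65.9, 33.6 and 29.2 CPM), with a log2 change of 1.52 ± 0.42 (edgeR adjusted p = 0.999). This call depended on the fit: Il1a in T cells passed with no filter on low counts (edgeR adjusted p = 9.28e-07), with the replicate block (0.0238) and within libraries over 1% nucleus-like barcodes (0.0153), and adjusted p ran from 0.272 upward in the other alternatives. These 3 fits called 76, 20 and 88 genes in T cells. There 3.43% of genes did not overlap and were higher with anti-VSIG4, the Il1a yardstick was 1.00, 1.23 and 1.11 with IgG and 1.56, 2.00 and 1.77 with anti-VSIG4, and neutrophil markers were at 3082, 1231 and 778 CPM against 4417, 1830.03 and 1809 CPM, whose part was not tested. Migratory dendritic cells (5.71% and 10.9%) and plasma cells (16.4% and 2.46%) had no tested member without overlap either. No tested member was without overlap in neutrophils (2.98% of genes higher, 9.43% lower), cDC2 (4.0% and 5.39%), fibroblasts (5.78% and 5.12%), tumour/epithelial cells (2.75% and 4.72%) or all cells (2.09% and 12.5%).

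In the smaller classes, groups without overlap were seen for Il1b and Il1rn. In NK cells Il1b was at 1014, 1046 and 1003 CPM with IgG and 2374, 1867 and 1059 CPM with anti-VSIG4 (log2 change 0.91 ± 0.29, edgeR adjusted p = 0.206), and 4.76% of genes there did not overlap and were higher. The third anti-VSIG4 library lay just above the IgG libraries. Il1b in NK cells passed within libraries under 1% nucleus-like barcodes (edgeR adjusted p = 0.0290), where 1 IgG library was set against 2 and 30 of 6610 genes passed, and without IgG replicate 1 (0.0404), where 408 of 6962 genes passed, 106 of them higher. The neutrophil markers of NK cells were at 2266, 1780 and 1473 CPM with IgG and 5838, 2504 and 1323 CPM with anti-VSIG4, and the Il1b yardstick was 1.03 to 1.67.

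Endothelial cells had 730, 427 and 174 CPM of Il1b with IgG against 1764, 738 and 749 CPM with anti-VSIG4 (log2 change 1.18 ± 0.60, edgeR adjusted p = 0.994). Il1rn in these cells was at 107, 60.9 and 24.3 CPM against 234, 147 and 109 CPM (1.28 ± 0.47, edgeR adjusted p = 0.961, and 0.00781 with no filter on low counts, where 67 of 18215 genes passed). Neither gene overlapped between groups, where 6.7% of genes did not overlap and were higher. Endothelial neutrophil markers were at 1222, 925 and 265 CPM against 4555, 1571 and 1792 CPM, and the Il1b yardstick was 1.45, 1.09 and 1.5 against 0.981, 1.01 and 0.875, lower with anti-VSIG4, where that of Il1rn was 1.17 to 2.43 and overlapped. The part of neutrophil RNA in these results was not tested.

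The share of cells with a UMI depended on the thinning depth. At 1000 UMIs per cell, Il1b was found in 91.6%, 86.0% and 82.5% of macrophages with IgG and 96.5%, 92.5% and 93.6% with anti-VSIG4, without overlap (exact permutation p = 0.1, the smallest possible), as 4.2% of all genes were in that direction (3.59% in the other). At 2000 UMIs the values were 97.5%, 93.2% and 90.4% against 99.6%, 97.5% and 98.1%, and IgG replicate 1 lay just above anti-VSIG4 replicate 2 (exact permutation p = 0.2), while 4.6% of genes did not overlap and were higher and 2.89% lower. Il1r1 was found in 4.81%, 4.23% and 10.1% of fibroblasts at 1000 UMIs, against 3.57%, 3.28% and 1.85% (exact permutation p = 0.1), as 5.42% of all genes were in that direction (5.39% in the other). This did not hold at 2000 UMIs (9.09%, 13.7% and 16.8% against 14.5%, 5.67% and 17.5%, exact permutation p = 1.0, with 5.27% of genes higher and 4.64% lower without overlap) or without thinning (26.9%, 29.6% and 36.4% against 33.3%, 23.5% and 29.6%, exact permutation p = 0.7). Of the 90 pairs of a member and a class, 5 did not overlap and were higher at 1000 UMIs (Il1b in macrophages, cDC2 and endothelial cells, Il1rn in endothelial cells and Il1a in T cells) and 2 were lower (Il1r1 in fibroblasts and Il1rap in migratory dendritic cells). At 2000 UMIs these numbers were 4 and 1, and without thinning they were 14 and 0. Il1a in T cells was the pair without overlap at both thinned depths. For detection, the share over all genes was counted in macrophages and fibroblasts only. The pairs of other classes therefore cannot be set against all genes.

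**Figure D4:**
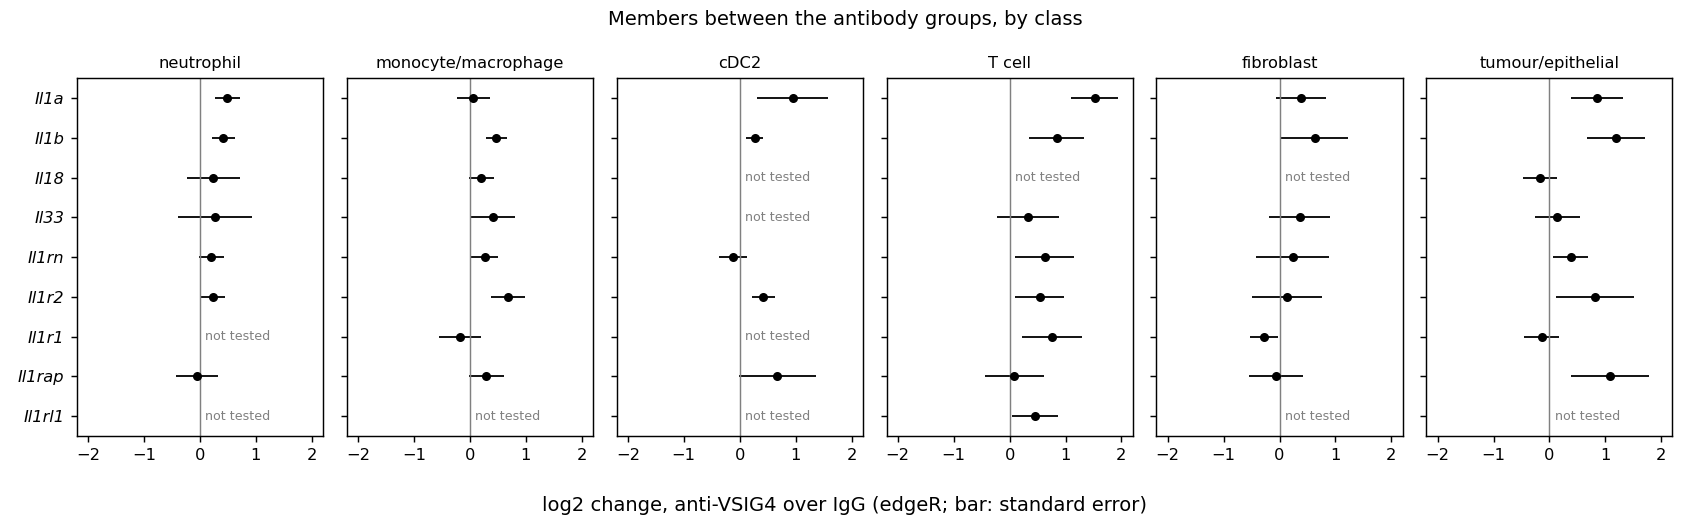
Log2 change of each gene with anti-VSIG4 over IgG in 6 cell classes from edgeR. Points are estimates, bars standard errors, the grey line is 0, and genes that did not pass the filter on low counts are written as not tested. Most points lie to the right of 0, and none passed the threshold after adjustment.

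The rest of the pathway was read from 54 further genes in 5 lists, of which 0 passed in any of these fits. In neutrophils 24 of the 45 tested genes were higher and 21 lower in the mean, with a median log2 change of 0.09 against -0.01 over all genes. Macrophages gave 19 higher and 27 lower of 46 (median -0.04 against 0.00). Among the response genes, which IL-1 and other NF-kB signals induce, 14 of 16 tested were higher in T cells (median log2 change 0.49), where 49.97% of all genes were higher. Of the 19 genes of this list 8, among them Cxcl2, Ptgs2 and Mmp9, had their highest pooled level in neutrophils, and the neutrophil markers of T cells averaged 1697 CPM with IgG and 2685 CPM with anti-VSIG4, whose part was not tested. In fibroblasts, the class with the most Il1r1, 5 of 17 were higher and 12 lower (median -0.48), where 50.5% of all genes were higher. The response genes higher were 11 of 16 in neutrophils, 7 of 17 in macrophages, 8 of 13 in cDC2, 9 of 18 in tumour/epithelial cells and 11 of 19 in all cells. In fibroblasts Csf3, which encodes the growth factor of neutrophils, was at 72.4, 139 and 51.3 CPM with IgG and 24.8, 9.12 and 4.68 CPM with anti-VSIG4. Its groups did not overlap and its log2 change was -2.83 ± 0.60 (edgeR adjusted p = 0.43). Ccl2, a monocyte attractant, was at 774, 1309 and 929 CPM against 678, 336 and 329 CPM (log2 change -1.22 ± 0.33, edgeR adjusted p = 0.48).

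In neutrophils Pycard, the inflammasome adaptor, was at 52.5, 39.0 and 41.5 CPM with IgG and 101, 96.2 and 62.1 CPM with anti-VSIG4, without overlap (log2 change 1.06 ± 0.23, edgeR adjusted p = 0.79). Saa3, an acute-phase gene, was at 135, 254 and 229 CPM against 289, 345 and 448 CPM there (0.92 ± 0.26, edgeR adjusted p = 0.83). Its pooled level was 294 CPM in neutrophils, 3430 in fibroblasts and 2817 in macrophages, and the part of free RNA was not tested. Saa3 was also higher without overlap in cDC2 (means 52.8 and 129 CPM) and T cells (68.8 and 151 CPM). Its change in the remaining classes is not given here. In macrophages Lcn2, a lipocalin that IL-1 induces, was at 15.02, 9.62 and 10.8 CPM against 46.6, 21.5 and 29.7 CPM (1.46 ± 0.27, edgeR adjusted p = 0.49). In tumour/epithelial cells Lcn2 was at 164, 125 and 104 CPM against 278, 328 and 311 CPM (1.24 ± 0.21, edgeR adjusted p = 1.00). Lcn2 is also a neutrophil granule gene, and the neutrophil markers of tumour/epithelial cells were at 1618, 598 and 390.0 CPM against 3464, 1042 and 916 CPM. These were 1.13% to 6.27% of the neutrophil level of the same library. The pooled level of Lcn2 was 175 CPM in neutrophils, 177 in tumour/epithelial cells and 24.4 in macrophages. The part of neutrophil RNA was not tested. None of these genes passed.

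By pooled level, the sensor Nlrp3 (1093 CPM), the kinase Irak2 (760 CPM) and the adaptor Myd88 (111 CPM) were highest in neutrophils, as was Il36g, the family ligand IL-36γ (276 CPM). Pycard was higher in macrophages (293 CPM) than in neutrophils (66.5 CPM). Both chains of the IL-18 receptor were highest in NK cells (Il18r1 83.4 CPM, Il18rap 85.3 CPM), and Il18bp, which neutralises IL-18, in macrophages (32.5 CPM). The response genes Cxcl1 (931 CPM), Ccl2 (769 CPM), Il6 (155 CPM) and Saa3 (3430 CPM) were highest in fibroblasts.

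Across 13 classes, the genes whose mean level was most like each member (Pearson r on log2 of CPM plus 20, of 5577 genes) described the same division. For Il1b they were Csf2ra (r = 0.973), Clec4n and Fem1c, for Il1a Cd300ld (r = 0.986), Igsf6 and Cxcl2, and for Il1rn Lst1 (r = 0.971), Tlr13 and Msrb1. For Il1r2 they were Ffar2 (r = 0.965), Siglece and Rasgrp4, and for Il1rap Cxcr2 (r = 0.981), Rab44 and Stfa2l1. For Il1r1 they were Bmp1 (r = 0.993), Fkbp7 and Plac9, and for Il33 Thbs3 (r = 0.988), Fst and Bicc1. Il1rl1 was most like Ccl1 (r = 0.908), Cd6 and Rora, and Il18 had no close match (Hk2, r = 0.857). The classes share libraries and free RNA, so these values are descriptions.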

How the data were processed

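The 6 tumours were profiled cell by cell with the DNBelab C TaiM4 V3.0 kit on an MGI DNBSEQ-T7, per the labels. The authors deposited 1 sparse matrix of UMI counts per gene and cell for each library, written by PISA 1.0 per the file headers. STAR and Seurat 4.11 are listed in the submitters' processing notes without a role. The genome build, annotation and settings are not stated in these sources, so coordinates are printed for RefSeq promoters alone. The smallest barcode total was 1000 UMIs in each library, which shows a selection of cells before deposit.

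The members and gene lists were chosen with earlier results of these data known. Cells were kept with at least 500 UMIs, 300 genes and at most 20% mitochondrial UMIs. Scrublet called 0 doublets, was taken not to have worked, and none were removed. In scanpy 1.11.5, Leiden clusters (resolution 1.0, 3000 variable genes, 40 components, 20 neighbours) were named from fixed markers by the mean log2 ratio over the median cluster on CPM plus 20, with at least 3 raised markers and no more markers of another class among 10 leading genes. Some settings were chosen after the data were seen: clusters with a median above 15% of UMIs in genes longer than 100 kb were called nucleus-like, and mixed clusters led by haemoglobin were split. Sub-clusters came from library-centred values and were compared with the lower quartile of sub-clusters.

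Counts of each class were added up within each library (at least 20 cells in each library) and fitted over all genes in edgeR 4.0.16 (R 4.3.3; TMM, filterByExpr, robust quasi-likelihood test, Benjamini-Hochberg per class). The fit was first tested on simulated counts with 200 changed genes. It recovered 63%, 59% and 59% of 2-fold changes in neutrophils, macrophages and fibroblasts, and 100% of 4-fold changes in each. False calls were 6, 9 and 9. The simulation gave all genes the same spread and no difference in library make-up, and changes under 2-fold were not simulated. That spread was a set value not taken from these data, and only genes above a count cut-off were changed. The recovered shares therefore do not carry over to the members. Single values were compared by exact two-sided permutation tests over libraries. Intervals cover counting error only. The mouse is the replicate. Named were all 9 members, per list and class the genes that passed or else the 2 of lowest p with 20 CPM or more, of which those printed were picked after their values were seen, and 3 most alike genes per member. Alternatives were DESeq2 1.42.0, its size factors, no filter, a replicate block, leaving out each library, library kind (under or over 1% nucleus-like) as covariate or split, removal of the 6% highest doublet scores, resolution 2.0, thinning to 2000 UMIs and another denominator. Removal of the sub-clusters led by neutrophil genes was added after seeing the data.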

Additional observations from a re-analysis of the deposited data

How the results depend on the processing

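Under the alternatives, 359 of 383 values of the 25 member changes examined kept their sign. Over all 68 pairs of a member and a class, 14 of 1123 values passed a false discovery rate of 0.05, in 11 pairs. Within the libraries over 1% nucleus-like barcodes (IgG 2, IgG 3 and anti-VSIG4 3, where the lone anti-VSIG4 library is assumed to vary like the others) these were Il1b in neutrophils, Il1r2 in macrophages, Il1a and Il1rn in T cells, and Il1a, Il1b and Il1rn in tumour/epithelial cells. Within those under 1% (IgG 1, anti-VSIG4 1 and anti-VSIG4 2, where the same is assumed of the lone IgG library) they were Il1a and Il1b in NK cells, with no filter on low counts Il1a in T cells and Il1rn in endothelial cells, without IgG replicate 1 Il1b in NK cells, and with the replicate block Il1a and Il1b in T cells (edgeR adjusted p = 0.0238 and 0.0495). The lowest adjusted p for Il1b in macrophages was 0.0937. The counts of genes called depended on the setting. With no filter on low counts they were 75 of 24000 in neutrophils, 99 of 25164 in macrophages and 19 of 19173 in cDC2. T cells had 76 of 22466, fibroblasts 168 of 20656 and tumour/epithelial cells 113 of 24160. With DESeq2 the counts were 5, 20, 0, 5, 32 and 5 in the same order, and 13 in all cells. Within libraries under 1% nucleus-like cells they were 33, 13, 12, 17, 91 and 5, and 5 in all cells, and within those over 1% they were 155, 271, 19, 88, 82 and 99, and 37 in all cells. The genes tested in these classes were 10831, 13438, 8811, 12310, 10398 and 12370 under 1%, and 17342 in all cells. Over 1% they were 12649, 13629, 7624, 11243, 10654 and 14548, and 20305 in all cells. With library kind as covariate 3 of 10991 genes were called in neutrophils, 1 of 12950 in macrophages and 11 of 9610 in fibroblasts. Removing high doublet scores or the neutrophil-led sub-clusters gave 1 in T cells each. With 1 library left out the counts ranged from 0 to 1 in neutrophils, 0 to 13 in macrophages, 0 to 2 in cDC2, 0 to 2 in T cells, 0 to 7 in fibroblasts, 0 to 4 in tumour/epithelial cells and 0 to 135 in all cells. They ranged from 0 to 408 in NK cells, 0 to 275 in migratory dendritic cells, 0 to 154 in plasma cells and 0 to 3 in endothelial cells, against 0, 0, 0 and 1 with all libraries. The counts of 408, 275, 154, 135, 13 and 7 (macrophages and fibroblasts last) were those without IgG replicate 1. The replicate block called 6, 2, 7, 20, 44 and 1 genes in neutrophils, macrophages, cDC2, T cells, fibroblasts and tumour/epithelial cells. These were of 10991, 12950, 8125, 10814, 9610 and 12003 genes tested. Whether same-numbered mice were paired cannot be decided from these values. Deviations of same-numbered libraries correlated at 0.356, -0.204 and 0.302 in neutrophils, and not every library was closest to its own number. IgG 2 was closest to anti-VSIG4 3 (0.452), and both were over 1% nucleus-like, so library make-up enters these correlations.

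Signs turned as follows on the log2 scale. Within libraries under 1% nucleus-like cells, Il1rn was at -0.17 in neutrophils and -0.17 in macrophages, Il1r2 at -0.077 in neutrophils, Il1rl1 at -0.47 and Il1r1 at -0.16 in T cells, and Il1r1 at 0.0098 in fibroblasts. Within those over 1%, Il1rap was at -0.11 in macrophages, Il1rn at 0.10 in cDC2, Il33 at -1.40 in fibroblasts and -0.87 in tumour/epithelial cells, and Il1r1 at 0.037 in tumour/epithelial cells. Il33 in tumour/epithelial cells was also at -0.039 with the replicate block and -0.14 with the covariate. Leaving out 1 library turned Il1rap in neutrophils (-0.52 to 0.29), Il1a in macrophages (-0.17 to 0.36), Il1rap in macrophages (-0.091 to 0.55), Il1rn in cDC2 (-0.33 to 0.24), Il33 in fibroblasts (-0.48 to 0.76), Il33 in tumour/epithelial cells (-0.52 to 0.45) and Il1r1 in tumour/epithelial cells (-0.38 to 0.072). The share differences that turned were those of Il1rn in neutrophils (-9.04 to 0.323 points with a library left out) and of Il1a, in neutrophils 0.347 without high doublet scores, 0.326 without neutrophil-led sub-clusters, 4.53 with all cells as denominator and -4.28 to 3.85 with a library left out, and in macrophages 4.67 with all cells and -3.69 to 4.09 with a library left out. The causes were not tested. Depth limits Il1r1, Il18, Il33 and Il1rl1 most, with 1431, 1823, 3849 and 596 UMIs in all cells.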
